A study of Mus musculus with 6 samples.

Results

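The 9 genes described here belong to the NRF2 antioxidant pathway and were followed through neoplastic cells sorted from mouse lung tumors. They are 9 of the 31055 features of a pooled single-cell RNA-seq matrix and were picked by symbol: Nfe2l2 and Keap1, which encode the transcription factor NRF2 and its repressor, and 7 genes whose products make glutathione or clear oxidants, namely Nqo1, Gclc, Gclm, Hmox1, Txnrd1, Srxn1 and Slc7a11. All 9 had UMIs. A UMI (unique molecular identifier) is a random tag on each captured transcript copy that keeps its PCR copies from being counted again.

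The tumors came from 6 mice that carried the alleles Lkb1XTR/XTR and Rosa26LSL-tdTomato, in which Cre, delivered into the airways by lentivirus, switches on the TdTomato reporter and inverts a gene trap with GFP that truncates Lkb1 (symbol Stk11). The tumors grew for 20 weeks, and tamoxifen or vehicle was given over the 2 weeks before harvest. The 3 mice labelled Restored, 2 male and 1 female, also carried FLPo-ERT2, a tamoxifen-dependent recombinase that removes the trap, and received tamoxifen. Of the 3 mice labelled NonRestored, 1 male without FLPo-ERT2 received tamoxifen, 1 male without it received vehicle, and 1 female with it received vehicle. All 6 mice therefore carried the Lkb1 trap and the reporter. Cells staining for CD45, CD31, F4/80 or Ter119 were sorted out before droplet capture.

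The files read here do not say which mouse a cell came from. The matrix was treated as 1 sample, Restored and NonRestored mice were not compared, and no p-value is given. Mouse, sex and treatment cannot be told apart in any difference between cells reported here, and cell barcodes shared between libraries were not counted. Of 16017 cells, the 12183 with at least 500 genes and at most 20% mitochondrial UMIs were kept, with 257163522 UMIs and a median of 19348 UMIs per cell. Levels are CPM, a gene's summed UMIs scaled to 1000000 UMIs of all genes in the same set of cells. Every interval is an exact 95% interval that covers counting error only, and not the spread between mice.

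The kept cells were split by 3 gates in UMIs per 10000. The ATII gate (Sftpc at least 500, Hopx under 2, Krt8 plus Krt18 under 50) held 6975 cells, the ATI gate (Hopx at least 15, Krt8 plus Krt18 under 50) 956 and the keratin-high gate (Krt8 plus Krt18 at least 50) 1183, and 3069 cells met no gate. Alveolar type II (ATII) cells make surfactant and serve as progenitors of the flat, gas-exchanging type I (ATI) cells, and keratin-high cells with Krt8 are known as a transitional state between them. Of the marker lists, 12 of 12 ATII markers were highest in the ATII gate, 12 of 12 ATI markers in the ATI gate and 10 of 10 transitional markers in the keratin-high gate, Sftpc, Hopx, Krt8 and Krt18 having set the gates. Summed immune markers stood at 8.90, 7.27 and 9.33 CPM in the ATII, ATI and keratin-high gates, against 340.5 CPM in the cells of no gate. Median depth was 21660 UMIs per cell in the ATII gate, 11796.5 in the ATI gate and 23490 in the keratin-high gate.

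In unstressed cells KEAP1 hands NRF2 to a ubiquitin ligase, and NRF2 is degraded. Oxidants and electrophiles modify cysteines of KEAP1, whereupon NRF2 accumulates, pairs with small MAF proteins and binds antioxidant response elements near its target genes. NRF2 activity thus rests largely on protein stability, which mRNA levels do not report. In human lung adenocarcinoma, loss of KEAP1 often occurs together with loss of LKB1.

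RefSeq promoter windows (GRCm38.p6, 250 bases before to 50 after an annotated start) matched 7 of the 9 members. Both strands were searched for the core of the antioxidant response element (TGACNNNGC), for the AP-1 site (TGAGTCA) and for the NF-E2-type element (TGANTCAGC), whose matches can overlap those of the other motifs. Of 32851 windows of the same length, 12.4% held the first, 5.20% the second and 1.19% the third. The response element core was found in windows of 4 members (Nfe2l2, Gclm, Txnrd1, Srxn1), and none of the motifs in those of Keap1, Nqo1 and Slc7a11. The windows of the 3 targets with a core are shown because these genes had higher levels in keratin-high than in ATII cells, with motif matches in capitals. That of Srxn1 (chr2:152105274-152105573, plus strand) held AP-1 sites at bases 149 to 155 and 206 to 212, the latter inside an NF-E2-type element that runs to base 214, and a response element core on the reverse strand at bases 279 to 287. That of Gclm (chr3:122245307-122245606, plus strand) held a reverse-strand core at bases 117 to 125. Of the 3 windows of Txnrd1, 1 (chr10:82858956-82859255, plus strand) held a reverse-strand core at bases 159 to 167.
Srxn1: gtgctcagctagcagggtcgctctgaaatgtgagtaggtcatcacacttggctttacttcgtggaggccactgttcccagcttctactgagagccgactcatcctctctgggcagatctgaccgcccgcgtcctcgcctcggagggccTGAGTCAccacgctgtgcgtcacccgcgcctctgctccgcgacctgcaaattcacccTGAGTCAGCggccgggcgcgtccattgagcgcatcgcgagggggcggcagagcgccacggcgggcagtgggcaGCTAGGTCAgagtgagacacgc
Gclm: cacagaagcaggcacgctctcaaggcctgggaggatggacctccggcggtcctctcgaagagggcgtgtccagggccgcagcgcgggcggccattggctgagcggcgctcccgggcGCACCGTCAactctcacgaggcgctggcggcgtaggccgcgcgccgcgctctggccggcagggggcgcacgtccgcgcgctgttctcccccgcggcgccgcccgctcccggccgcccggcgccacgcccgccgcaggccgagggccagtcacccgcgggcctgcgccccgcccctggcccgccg
Txnrd1: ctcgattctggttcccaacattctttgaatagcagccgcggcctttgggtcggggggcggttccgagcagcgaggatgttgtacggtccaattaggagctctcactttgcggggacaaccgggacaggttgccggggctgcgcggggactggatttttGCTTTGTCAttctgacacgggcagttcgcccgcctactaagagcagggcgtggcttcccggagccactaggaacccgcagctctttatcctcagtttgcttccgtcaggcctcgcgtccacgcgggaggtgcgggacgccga
A match describes these letters only and is not evidence of binding.

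The members fell into different patterns across the gates by CPM. Srxn1, Txnrd1 and Gclm were highest in keratin-high cells, Gclc was high in keratin-high and ATII cells and low in ATI cells, Hmox1 was highest in ATII cells, and Nfe2l2 and Keap1 varied less. Nqo1 and Slc7a11 stayed under 10 CPM in all gates, and Slc7a11 had no UMI in the ATI gate.

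**Figure D1:**
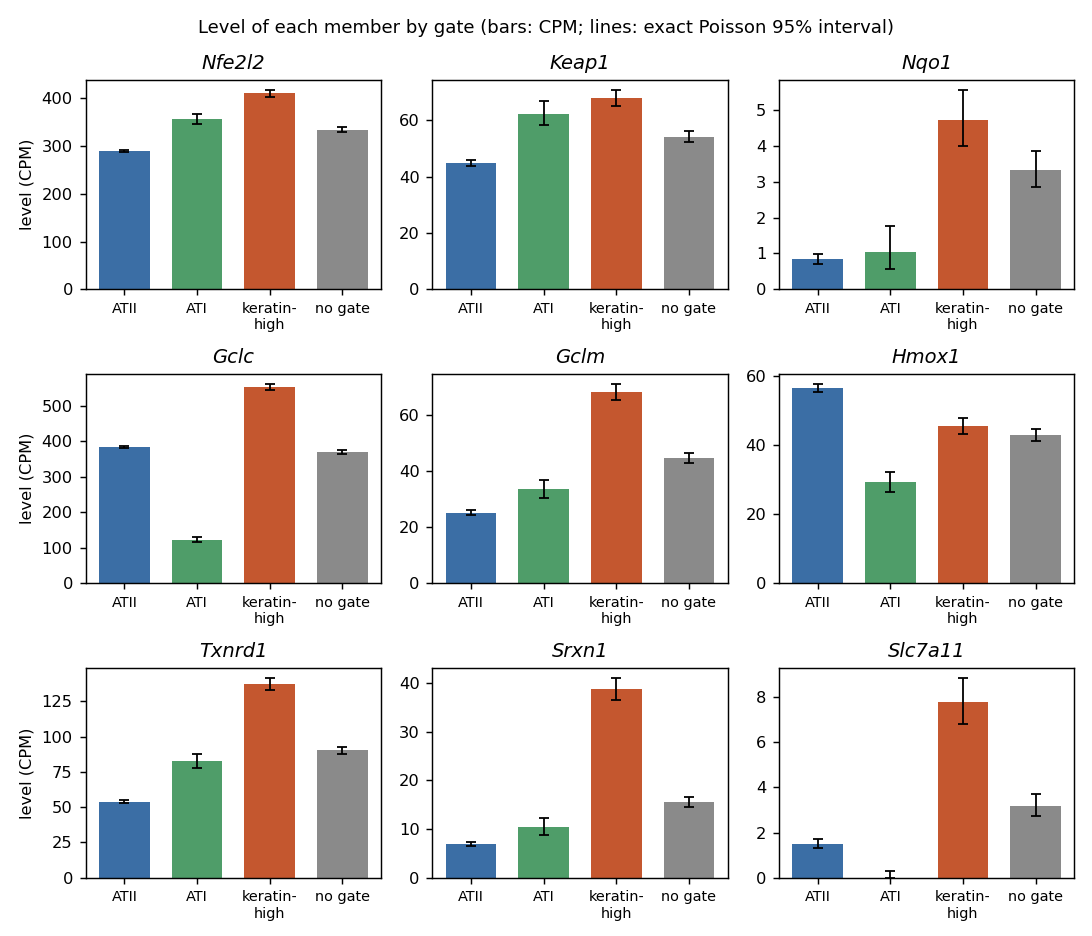
Level of each of the 9 genes in CPM (bars, axes from 0) in the ATII gate, the ATI gate, the keratin-high gate and the cells of no gate, with exact Poisson 95% intervals. Srxn1 stood at 38.7 CPM in keratin-high cells and 6.90 CPM in ATII cells, and Slc7a11 was not detected in the ATI gate.

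Nfe2l2 (2:75675513-75704641, minus strand, GRCm38) stood at 289 CPM (287 to 292) in the ATII gate, 357 CPM (347 to 367) in the ATI gate and 411 CPM (403 to 418) in the keratin-high gate. The order was keratin-high, ATI, no gate and ATII, and the intervals of the gated sets did not overlap. Keap1 (9:21229730-21239361, minus strand), the adaptor that targets NRF2 for degradation, stood at 44.9 CPM (43.9 to 46.0) in ATII, 62.3 CPM (58.1 to 66.7) in ATI and 67.8 CPM (64.9 to 70.8) in keratin-high cells. Its ATI and keratin-high intervals overlapped. Both regulators lay close to the median gene, whose level was higher by 0.39 on the log2 scale in keratin-high than in ATII cells: relative to it, Nfe2l2 was higher by 0.12 and Keap1 by 0.21. Sftpc alone took 15.5% of the UMIs in the ATII gate, 4.75% in the ATI gate and 1.92% in the keratin-high gate, which lowers the CPM of other genes where it is high.

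Srxn1 (2:152105516-152111376, plus strand), which encodes sulfiredoxin, the enzyme that rescues over-oxidized peroxiredoxins, had its highest level in keratin-high cells. It stood at 6.90 CPM (6.50 to 7.31) in ATII, 10.3 CPM (8.69 to 12.2) in ATI and 38.7 CPM (36.5 to 41.0) in keratin-high cells. Its level was 5.61-fold (5.17 to 6.10) higher in keratin-high than in ATII cells. Against ATI cells the ratio was 3.74 (3.14 to 4.50).

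Txnrd1 (10:82833951-82897712, plus strand), the cytosolic thioredoxin reductase, followed the same order, with 53.8 CPM (52.7 to 54.9) in ATII, 82.7 CPM (77.9 to 87.7) in ATI and 137 CPM (133 to 142) in keratin-high cells. Its keratin-high over ATII ratio was 2.55 (2.46 to 2.65). Gclm (3:122245557-122270732, plus strand), the modifier subunit of glutamate-cysteine ligase, stood at 25.3 CPM (24.5 to 26.1) in ATII, 33.6 CPM (30.5 to 36.8) in ATI and 68.2 CPM (65.3 to 71.2) in keratin-high cells. The ratio of Gclm was 2.70 (2.56 to 2.84), and the intervals of the 3 gates did not overlap for either gene. Gene models on the same strand overlap both loci (Eid3 for Txnrd1, Gm6061 for Gclm), and reads shared with them cannot be told apart. The same holds for Nfe2l2 (Gm24996) and Slc7a11 (Gm37692 and Gm37498).

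Gclc (9:77754535-77794485, plus strand), the catalytic subunit of the same ligase and the rate-limiting step of glutathione synthesis, did not follow its partner. It stood at 385 CPM (382 to 388) in ATII, 123 CPM (118 to 130) in ATI and 553 CPM (545 to 562) in keratin-high cells. Gclc was therefore 3.12-fold (2.97 to 3.27) lower in ATI than in ATII cells, where Gclm was 1.33-fold (1.201 to 1.46) higher. The keratin-high over ATI ratio of Gclc was 4.48 (4.26 to 4.72). With every cell reduced at random to 5000 UMIs (thinned), 74.5% of ATII cells, 28.4% of ATI cells and 63.7% of keratin-high cells had a Gclc UMI. The share in ATI cells (25.4 to 31.6%) lay above that in fibroblast-marked cells of the same matrix, 14.9% (10.2 to 20.8%), which were taken as the reference for free RNA although they may express the gene themselves.

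Hmox1 (8:75093621-75100589, plus strand), the inducible heme oxygenase, was lower in ATI cells, with 29.3 CPM (26.5 to 32.4), than in keratin-high cells, with 45.5 CPM (43.1 to 47.9), and ATII cells, with 56.6 CPM (55.4 to 57.7). It was 1.93-fold (1.74 to 2.14) lower in ATI than in ATII cells. Hmox1 was the only member with a level lower in keratin-high than in ATII cells, at a ratio of 0.804 (0.760 to 0.851).

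Nqo1 (8:107388225-107403206, minus strand), the quinone reductase often used as an NRF2 readout, was scarce. It stood at 0.842 CPM (136 UMIs) in ATII, 1.05 CPM (14 UMIs) in ATI and 4.73 CPM (145 UMIs) in keratin-high cells. The keratin-high over ATII ratio was 5.62 (4.41 to 7.15), and ATI and ATII cells could not be distinguished at this depth, with a ratio of 1.25 (0.664 to 2.16). In thinned cells 1.83% (1.12 to 2.82%) of keratin-high and 1.03% (0.125 to 3.67%) of fibroblast-marked cells had an Nqo1 UMI, with overlapping intervals. Fibroblast-marked cells had 3.29 CPM of Nqo1, against 1.82 CPM in all kept cells, so they do not measure free RNA for this gene.

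Slc7a11 (3:49892526-50443614, minus strand), the cystine importer that feeds glutathione synthesis, had 243 UMIs in ATII, 0 in ATI and 239 in keratin-high cells, or 1.504, 0 and 7.79 CPM. Set against a floor of 3 UMIs in the ATI gate, it was 6.69-fold higher in ATII and 34.7-fold higher in keratin-high cells. The exact intervals of these ratios, taken at 0 UMIs in the ATI gate, had lower limits of 5.40 and 27.97. The keratin-high UMIs came from 45 of 1183 cells, and 76.2% of them from the 12 cells with the most. In thinned cells 17.6% of the immune-marked cells (at least 4 immune markers) had an Slc7a11 UMI, against 1.83% of keratin-high, 0.576% of ATII and 0 of 841 ATI cells, which at 3 counts allows a share of cells with a UMI of up to 0.357% in thinned cells. Of the cells with at least 3 immune markers, 7 lay in the ATII gate, 0 in the ATI gate and 1 in the keratin-high gate, and the part of immune cells in these values was not tested.

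Set against the same fibroblast-marked cells, the shares of the other members differed. In thinned cells 43.6% (40.6 to 46.6%) of keratin-high cells had a Txnrd1 UMI, above the 18.6% (13.3 to 24.8%) of fibroblast-marked cells, and 23.2% of ATII cells did, within that interval. For Gclm, 21.2% (18.8 to 23.7%) of keratin-high, 17.004% of ATI and 10.6% (9.91 to 11.4%) of ATII cells had a UMI. In fibroblast-marked cells the share was 27.8% (21.7 to 34.7%) and in endothelial-marked cells 32.6% (23.0 to 43.3%), the keratin-high interval overlapping both. Gclm stood at 71.0 and 72.6 CPM in these marked cells, against 34.8 CPM in all kept cells, so they do not measure free RNA for it. Between keratin-high and ATII cells, the share of Gclm differed beyond counting error. Hmox1 had a UMI in 22.7% of ATII, 16.7% of keratin-high and 11.8% of ATI cells against 22.2% (16.5 to 28.7%). For Nfe2l2 the shares were 70.9% of ATII, 76.3% of ATI and 79.1% of keratin-high cells, above the 45.9% (38.7 to 53.2%) of fibroblast-marked cells. Keap1 had 20.3, 27.5 and 28.7%, against 20.6% (15.2 to 27.0%).

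A gene was counted as past the fold when its ratio was at least 1.5 in either direction and its level at least 10 CPM in either set, which left 7 members. In keratin-high over ATII cells, 4 members were past it as higher (Srxn1, Gclm, Txnrd1 and, at 1.51 with an interval of 1.44 to 1.59, Keap1) and 0 as lower, where 34.7% and 8.61% of 8363 genes were. Of these 4, Srxn1 was under 10 CPM in ATII cells and was counted through the gate where it was higher, so these counts are a description only. In keratin-high over ATI cells, 5 members were past it as higher (Gclc, Srxn1, Gclm, Txnrd1, Hmox1) and 0 as lower, where 12% and 9.94% of 8454 genes were. In ATI over ATII cells, 1 member was higher (Txnrd1, at 1.54) and 2 were lower (Gclc, Hmox1), where 31% and 9.03% of 8303 genes were, and Srxn1 lay just under the fold at 1.499 (1.25 to 1.79).

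The comparisons with ATII cells move with the level of the median gene, which was higher by 0.38 (log2) in ATI and by 0.39 in keratin-high cells. Measured from it, 3 members were higher and 1 (Hmox1) lower in keratin-high than in ATII cells, where 15.4% and 15.8% of genes were. For ATI over ATII cells this gave 0 higher and 2 lower members, where 12.4% and 16% of genes were. For keratin-high over ATI cells the median gene differed by 0.01, and 5 members were higher and 0 lower, where 11.7% and 10.2% of genes were. Gclc was higher by 0.14 than the median gene in keratin-high over ATII cells, and lower than it by a log2 difference of -2.02 in ATI over ATII cells.

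**Figure D2:**
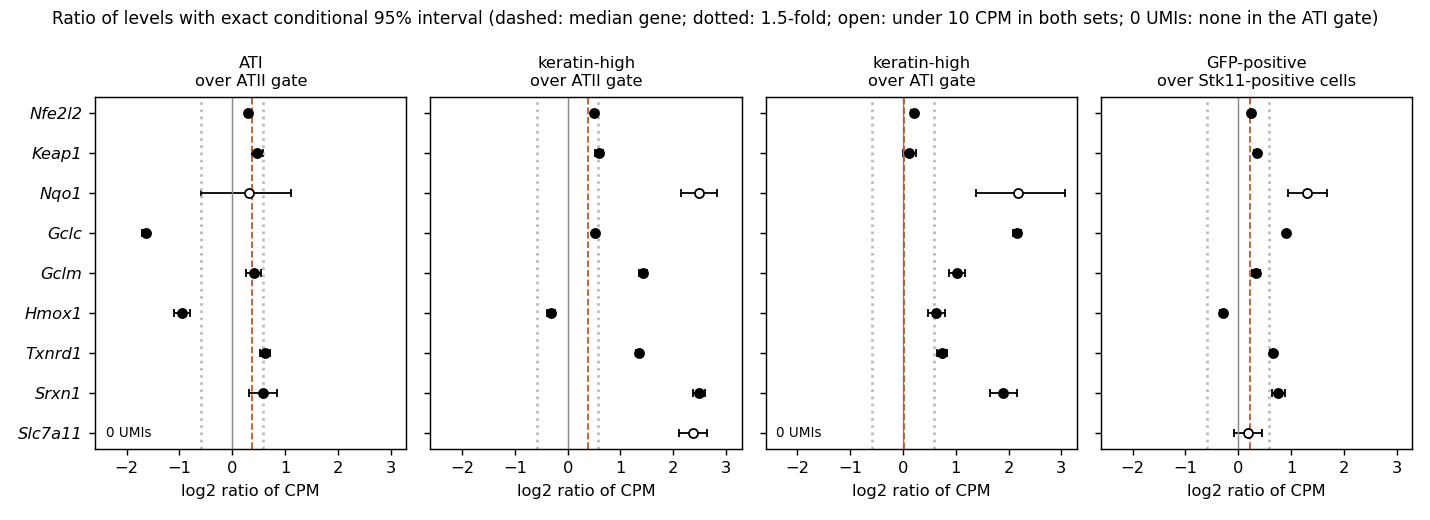
Log2 ratio of CPM for each of the 9 genes in 4 comparisons, with exact conditional 95% intervals (points and bars), the median gene (dashed) and the 1.5-fold limits (dotted). Open points mark genes under 10 CPM in both sets. Srxn1, Txnrd1 and Gclm lay above the median gene in both keratin-high comparisons, and Gclc at a log2 ratio of -1.64 in ATI over ATII cells.

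The level of keratin itself was then used to order the 12183 kept cells, in bins of Krt8 plus Krt18 per 10000 UMIs. Srxn1 stood at 6.04 CPM in the 2546 cells under 5 and at 5.16, 9.99, 20.2, 40.7 and 34.2 CPM in the bins from 5, 10, 25, 50 and 100. Txnrd1 went from 49.2 CPM in the lowest bin to 140 CPM in the bin from 50. Both genes were thus already higher in the bin from 25 to 50, below the gate, than in the bins under 10. Gclm was higher from the bin of 25 on, going from 30.3 CPM in the bin from 10 to 40.3 CPM in the bin from 25 and 70.6 CPM in the bin from 50. For all of Srxn1, Txnrd1, Gclm and Gclc, the last bin of 334 cells was not higher than the one before it. The share of cells with GFP transcripts followed the same bins, from 8.17% in the lowest to 56.9% in the highest, and its part was not tested over the bins.

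**Figure D3:**
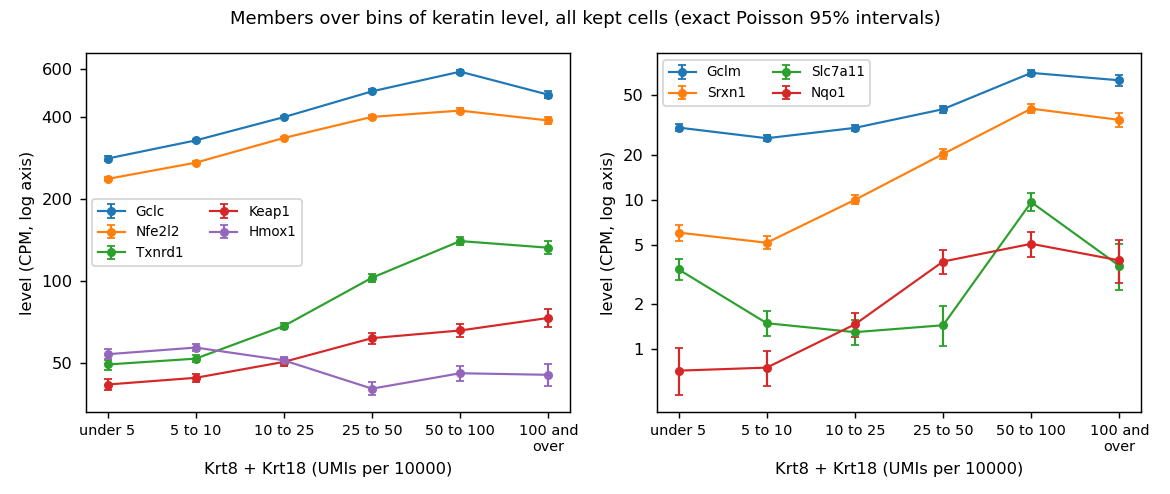
Levels in CPM (log axes) of the 9 genes over 6 bins of Krt8 plus Krt18 in UMIs per 10000, with exact Poisson 95% intervals, over all kept cells. Srxn1 went from 5.16 CPM in the bin from 5 to 40.7 CPM in the bin from 50, and Hmox1 stayed between 40.1 and 56.8 CPM.

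Keratin-high cells differed among themselves by Hopx, the ATI marker. The 620 keratin-high cells with Hopx under 2 had 683 CPM of Gclc, the 436 with Hopx from 2 to 15 had 411 CPM, and the 127 with Hopx of at least 15 had 182 CPM. Gclc was therefore lower with more Hopx inside the keratin-high gate too. Srxn1 varied less, with 43.9 CPM (40.8 to 47.0), 31.0 CPM (27.7 to 34.5) and 34.2 CPM (26.8 to 43.0), the last interval overlapping both others. Slc7a11 had 231 UMIs in the cells with Hopx under 2, 8 in the next set and 0 in the set with the most Hopx. These 3 sets had median depths of 27049, 22244 and 15598 UMIs per cell.

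A few cells held much of the signal of some targets. A single keratin-high cell, with 115466 UMIs, had the highest counts of 4 members in the gate, namely 315 UMIs of Gclc, 223 of Gclm, 159 of Txnrd1 and 120 of Srxn1. Without it, the keratin-high level was 61.2 CPM for Gclm and 34.9 CPM for Srxn1, still above ATII cells. Over the gate, 466 of 1183 cells had an Srxn1 UMI, and the 12 cells with the most held 28.1% of them. In thinned cells 13.3% (11.3 to 15.5%) of keratin-high, 2.98% (2.59 to 3.42%) of ATII and 3.92% (2.72 to 5.47%) of ATI cells had an Srxn1 UMI. Unthinned shares were 39.4, 11.8 and 10.9%. The thinned share of fibroblast-marked cells was 5.67% (2.86 to 9.92%), and only the keratin-high share lay above it. Srxn1 stood at 13.6 CPM in fibroblast-marked and 12.6 CPM in all kept cells, so the former may express it themselves.

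Cells were also split by transcripts of the trap (GFP) and of Lkb1 (Stk11). GFP and no Stk11 UMI were found in 3360 (GFP-positive), Stk11 and no GFP UMI in 3367 (Stk11-positive), both in 29 and neither in 5427. This is a split of cells by detected transcripts and not of mice. Median depths were 24516.5 and 23635 UMIs. Of keratin-high cells 54.3% were GFP-positive and 13.9% Stk11-positive, against 24.97% and 33.7% of ATII cells, so ratios were also taken within each gate.

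Gclc was higher in GFP-positive cells in all gates. It stood at 523 CPM (518 to 527) in GFP-positive and 278 CPM (274 to 281) in Stk11-positive cells, a ratio of 1.88 (1.85 to 1.91), and 3.12% of 8073 genes had a larger one. Within the ATII gate the levels were 497 and 298 CPM, a ratio of 1.67 (1.63 to 1.70). Within the ATI gate they were 189 and 94.04 CPM, a ratio of 2.01 (1.79 to 2.27). Within the keratin-high gate they were 656 and 239 CPM, a ratio of 2.75 (2.59 to 2.93), and in cells of no gate 523 and 255 CPM, a ratio of 2.05 (1.97 to 2.13). Among cells of no gate, 9 of 734 GFP-positive and 101 of 583 Stk11-positive cells had at least 3 markers of another cell type. Their part in that ratio was not tested. The reporter TdTomato also differed, with 9573 CPM in GFP-positive and 5279 CPM in Stk11-positive cells, and its part was not tested.

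Of the other targets, Txnrd1 was also higher by CPM in GFP-positive cells throughout, and Srxn1, Gclm, Hmox1 and Slc7a11 held no single direction across gates. Srxn1 stood at 17.4 CPM in GFP-positive and 10.3 CPM in Stk11-positive cells, a pooled ratio of 1.69 (1.56 to 1.84). Its ratio was 1.57 (1.30 to 1.897) within the keratin-high gate, 1.11 (0.965 to 1.29) within the ATII gate and 0.442 (0.280 to 0.683) within the ATI gate, where it rested on 31 and 71 UMIs. Txnrd1 was 1.58-fold higher in the pool and between 1.22 and 1.4997-fold higher in the gates and outside them. Measured from the median gene, its log2 ratio was 0.10 in the ATII gate, where 29.3% of genes had a larger ratio. It was 0.35 in the ATI gate, 0.34 in the keratin-high gate and 0.42 in cells of no gate. Gclm did not differ in the ATII gate, where its ratio was 1.00 (0.929 to 1.08). Slc7a11 had a pooled ratio of 1.14 (0.9497 to 1.37). Within the ATII gate it stood at 0.927 against 2.14 CPM, from 44 and 134 UMIs. Its thinned shares there overlapped, at 0.521% (0.238 to 0.986%) and 0.729% (0.425 to 1.17%). The 70 cells with the most held 70.8% of its UMIs in that gate. Its ratio was 0.501 (0.312 to 0.792) in cells of no gate and 1.16 (0.817 to 1.69) within the keratin-high gate. Nqo1, under 10 CPM, had a pooled ratio of 2.47 (1.93 to 3.19), from 234 and 90 UMIs. Its ratio was 1.83 (1.03 to 3.56) within the keratin-high gate and 2.12 (1.37 to 3.36) in cells of no gate, while the intervals within the ATII gate, 1.44 (0.930 to 2.25), and the ATI gate, 0.843 (0.204 to 3.32), held 1. The ratio of Nfe2l2 lay between 0.982 and 1.17 in the gates and outside them.

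Past the 1.5-fold limit in the pool were 3 of 7 members as higher (Gclc, Srxn1, Txnrd1) and 0 as lower, where 8.67% and 2.91% of 8073 genes were. Relative to the median gene, higher by 0.22 (log2) in GFP-positive cells, 1 of the 7 members (Gclc) was past it as higher and 0 as lower, where 4.04% and 5.23% of genes were. In either direction 1 of 6 members passed within the ATII gate, 2 of 7 within the ATI gate and 2 of 7 within the keratin-high gate, where 7.15%, 10.2% and 11.6% of genes did. Srxn1, 1 of the 2 in the ATI gate, reached 10 CPM only in Stk11-positive cells.

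**Figure D4:**
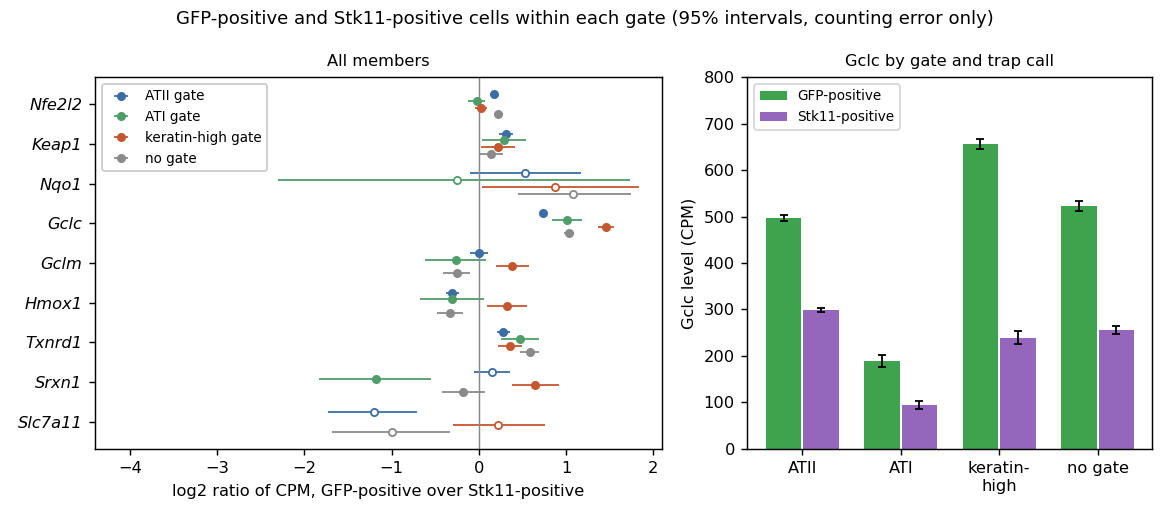
Left, log2 ratio of CPM in GFP-positive over Stk11-positive cells for each of the 9 genes within each gate and outside the gates, with exact conditional 95% intervals (open points, under 10 CPM in both sets). Right, Gclc levels in CPM with exact Poisson 95% intervals, higher in GFP-positive than in Stk11-positive cells in all 4 sets, from 189 against 94.04 CPM in the ATI gate to 656 against 239 CPM in the keratin-high gate. The cells of no gate include 9 GFP-positive and 101 Stk11-positive cells with markers of another type.

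The difference between keratin-high and ATII cells was then taken inside each transcript class. Srxn1 was 5.86-fold (5.18 to 6.65) higher in keratin-high than in ATII cells among GFP-positive cells and 4.17-fold (3.40 to 5.08) higher among Stk11-positive cells. Gclm was 2.88-fold and 2.20-fold higher and Txnrd1 2.47-fold and 2.35-fold higher. Srxn1, Gclm and Txnrd1 thus differed in the same direction in both classes. Gclc did not: its ratio was 1.32 (1.29 to 1.35) among GFP-positive and 0.800 (0.752 to 0.850) among Stk11-positive cells. The difference between these ratios was not tested. The low Gclc of ATI cells was present in both classes, with ATI over ATII ratios of 0.381 (0.355 to 0.408) and 0.315 (0.285 to 0.348). The ATI over ATII ratio of Srxn1 was 0.942 (0.631 to 1.36) among GFP-positive and 2.38 (1.82 to 3.06) among Stk11-positive cells. It rested on 31 and 71 ATI UMIs, 1 ATI cell held 20 of the 138 in the gate, and the difference between the ratios was not tested.

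A further 91 genes of the pathway, in 7 lists, were counted by the same rule. In keratin-high over ATII cells, 24 of 75 with at least 10 CPM were higher and 10 lower, where 34.7% and 8.61% of all genes were, so that the share of higher genes was near that of all genes. Measured from the median gene these were 14 and 23, where 15.4% and 15.8% of all genes were, which turned the balance towards lower. Of the 24 higher genes 5 (Abcc1, Aldh1a1, Gsta1, Gsto1 and Ugdh), and of the 10 lower genes 2 (Ggt5 and Gsta3), reached 10 CPM only in the gate where they were higher. The median log2 ratio of the 75 was 0.19 where that of all genes was 0.39. The lists are small, and their counts are read against the same shares. Among the regulators and partners of NRF2, 5 of 10 were higher and 0 lower, led by Maff, a small MAF partner, at 2.24-fold. The other 4 (Sqstm1, Mafg, Mafk and Cul3, named after their values were seen) were between 1.59 and 1.80-fold higher and fell under the fold when measured from the median gene. Among glutathione genes 6 of 18 were higher and 6 lower. Gpx2, a glutathione peroxidase of epithelia, stood at 130 against 10.5 CPM, 12.4-fold higher, and Gsta1, a glutathione transferase whose close paralogs can share reads, at 16.9 against 0.198 CPM. Gsto1 was 8.91-fold and Mgst3 3.47-fold higher. Ggt5, Gstt1, Mgst1 and Gsta3 were lower, at ratios of 0.238, 0.245, 0.377 and 0.401.

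Quinone, carbonyl and xenobiotic genes had 6 of 14 higher and 0 lower, beside the 34.7% and 8.61% of all genes, but 3 of the 6 were counted through the keratin-high level alone. Akr1b8, an aldo-keto reductase, stood at 351 against 39.1 CPM, 8.98-fold (8.70 to 9.26) higher. These 3, Aldh1a1, Ugdh and the glutathione conjugate exporter Abcc1, stood at 3.60, 7.95 and 3.54 CPM in ATII cells and were 5.48-fold, 3.56-fold and 3.55-fold higher. Of the NADPH suppliers 3 of 7 were higher and 1 lower, with the pentose phosphate enzymes Pgd and Taldo1 at 2.36-fold and 2.31-fold. Thioredoxin and peroxiredoxin genes had 3 of 13 higher, Prdx1 at 2.05-fold among them, and 2 lower. Catalase (Cat), which breaks down hydrogen peroxide, was the only one of 5 superoxide and peroxide genes past the fold, at 40.1 against 132 CPM. Heme and iron genes had 1 of 8 higher and 0 lower.

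**Figure D5:**
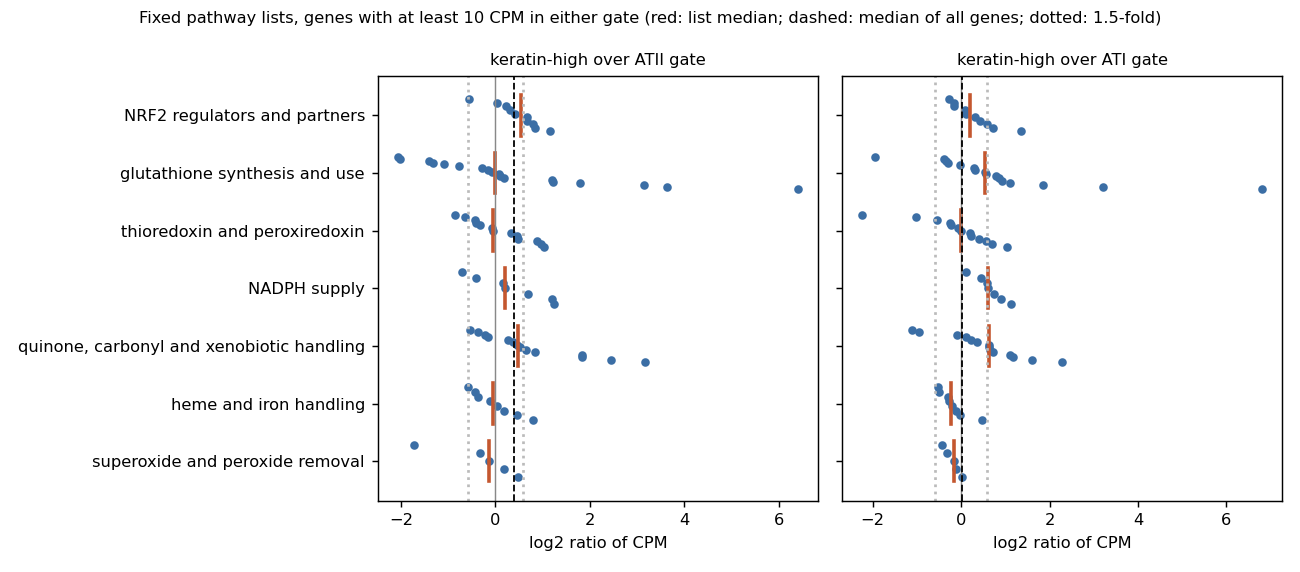
Log2 ratio of CPM for the genes of 7 pathway lists with at least 10 CPM in either gate (points), with list medians (red), the median of all genes (dashed) and the 1.5-fold limits (dotted). In keratin-high over ATII cells the glutathione list spread from Ggt5, 0.238-fold, to Gsta1, 85.1-fold, with a list median of 0.00 on the log2 scale.

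Against ATI cells, 25 of 73 pathway genes were higher in keratin-high cells and 5 lower, where 12% and 9.94% of all genes were. Of the 25, 6 (Abcc1, Abcc4, Gsta1, Mgst2, Nqo2 and Ugdh) were under 10 CPM in ATI cells. Of the quinone, carbonyl and xenobiotic genes 8 of 14 were higher and 2 lower, of the glutathione genes 7 of 16 were higher and 1 lower, and of the NADPH suppliers 5 of 7 were higher and 0 lower. Gpx2 was 9.24-fold, Akr1b8 4.84-fold, Mgst2 3.61-fold, Ugdh 3.05-fold, Maff 2.54-fold, Nqo2 2.27-fold, Pgd 2.19-fold, Cbr3 2.16-fold, Mgst3 2.16-fold and Txn1 2.06-fold higher. Gsta1 had 2 UMIs in the ATI gate and 517 in the keratin-high gate, a ratio of 112 (31.0 to 931). Lower were Prdx6 (0.211), Gstt1 (0.258), Ephx1 (0.463) and Txnip (0.491).

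In ATI over ATII cells 14 of 73 pathway genes were higher and 13 lower, where 31% and 9.03% of all genes were. Measured from the median gene these were 5 and 26, where 12.4% and 16% of all genes were. Of the 14 higher genes 3 (Aldh1a1, Btrc and Gsto1), and of the 13 lower genes 3 (Abcc4, Ggt5 and Mgst2), reached 10 CPM only in the gate where they were higher. Prdx6, a peroxiredoxin that also acts on phospholipids, stood at 1721 CPM in ATI and 457 CPM in ATII cells, 3.77-fold (3.71 to 3.82) higher. Gsto1, Aldh1a1, Ephx1 and Abcc5 were 4.67-fold, 4.24-fold, 3.84-fold and 2.35-fold higher. Lower in ATI cells were Mgst2 (0.130), Ggt5 (0.183), Glrx (0.344), Cat (0.409), Idh1 (0.445), Osgin1 (0.449), Mgst1 (0.460) and Me1 (0.491).

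Between GFP-positive and Stk11-positive cells, 4 of 73 pathway genes were higher and 7 lower in the pool, where 8.67% and 2.91% of all genes were. The genes named here were chosen after their values were seen. Gpx2 stood at 61.1 against 13.5 CPM and Akr1b8 at 132 against 61.1 CPM, and Prdx4 and Mgst3 were 1.63-fold and 1.62-fold higher. Within the ATII, ATI and keratin-high gates, where the mixture of gates does not enter, the ratio of Gpx2 was 2.03, 2.35 and 3.48. That of Akr1b8 was 1.202, 1.03 and 1.17, that of Prdx4 1.41, 1.34 and 1.49, and that of Mgst3 1.28, 1.05 and 0.972. Pathway genes past the fold in either direction numbered 5 of 71 (1 higher) in the ATII gate, 10 of 69 (2 higher) in the ATI gate and 15 of 75 (6 higher) in the keratin-high gate, beside 7.15%, 10.2% and 11.6% of all genes. Of these, 2 (Gpx2 and Gsta3), 2 (Aldh1a1 and Gsta3) and 5 (Gsta1, Mgst2, Abcc4, Gstm5 and Tigar) reached 10 CPM only in the class where they were higher. In the pool, lower were Gpx3 (0.0765), Gsta3 (0.285), Aldh1a1 (0.296), Prdx6 (0.557), Cat (0.557), Fth1 (0.626) and Gstm1 (0.639). Of these, Gpx3, Gsta3 and Aldh1a1 reached 10 CPM only in Stk11-positive cells, with Gpx3 at 2.20 against 28.8 CPM. Cells with at least 3 markers of another type numbered 37 among GFP-positive and 137 among Stk11-positive cells, and without all such cells 7 pathway genes were past the fold in place of 11.

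Across 12 sets of cells (each gate and the cells of no gate, split into GFP-positive, Stk11-positive and neither), the genes whose log2(CPM + 1) was most like that of Srxn1 were Hist1h1c, with a Pearson r of 0.965, Ier3ip1, 0.951, Zfp593, 0.944, Cox18, 0.941, and Dpy30, 0.934, out of 9759 genes. Among members, Gclm stood at 0.931, Nqo1 at 0.866, Txnrd1 at 0.803 and Nfe2l2 at 0.789, and Gclc at 0.312 and Hmox1 at -0.02. These values describe sets that come from 1 matrix and differ in depth.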

How the data were processed

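Neoplastic cells of 6 mice were analysed by 3-prime droplet RNA-seq (10x). The deposited values were raw UMI counts per gene and cell in 1 pooled matrix of 16017 cells and 31055 features. Per the study's methods and the submitters' processing notes, alignment to mm10, cell calling and UMI counting were done by the authors with Cell Ranger 3.0.2. The annotation release is not given in the sources used here. A further allele shared by all mice is not reported here.

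Cells were kept with at least 500 genes and at most 20% mitochondrial UMIs, and UMIs were summed over each gate. Levels (CPM) carry exact Poisson 95% intervals, ratios exact conditional binomial intervals and shares exact Clopper-Pearson intervals, which cover counting error only. A count of 0 was set at 3 counts for fold values and limits of shares. Shares were taken after thinning each cell to 5000 UMIs (seed 42), which left out 1099 of the 12183 cells (203 ATII, 115 ATI and 93 keratin-high). No doublet caller was run; leaving out the 6% of cells with the most UMIs was an alternative. Cells with at least 3 detected marker genes of another type were kept, and leaving them out was an alternative too. The planned edgeR comparison of Restored and NonRestored mice was not run, since no file read here maps cells to mice. Cells with at least 4 detected markers of a type formed the reference sets.

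The members, gene lists and gates were chosen with earlier results of these data known. Named pathway genes were, per list and direction, up to 4 genes past 2-fold with at least 10 CPM between a pair of gates, and the 5 genes most like Srxn1, the member with the largest ratio among those with at least 10 CPM in the higher gate. Outside this rule are the genes said to be named after their values were seen. Genes listed as reaching 10 CPM in only 1 set of a pair are outside it too. Gene positions came from GENCODE M21 (GRCm38), which matched 30934 of 31055 feature IDs. Python 3.11.15 was used with pandas 2.3.3, scipy 1.17.1, numpy 2.4.6 and matplotlib 3.10.9, and the interval code was tested on simulated data. Alternatives changed the weighting, thinning, filters, gates, fold and CPM minimum.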

Additional observations from a re-analysis of the deposited data

Results flagged for a closer look

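Hmox1 had opposite directions by gate in the CPM of GFP-positive over Stk11-positive cells. The ratio was 0.810 in the ATII gate and 1.25 in the keratin-high gate, each with an interval that left out 1. In thinned cells the ATII shares were 20.9% (19.0 to 22.9%) and 24.8% (23.1 to 26.6%). The keratin-high shares did not differ beyond counting error, at 17.5% (14.6 to 20.7%) and 17.8% (12.3 to 24.5%). In the keratin-high gate 1 cell held 116 of the 1395 Hmox1 UMIs, and without that cell the level of the gate was 41.7 CPM in place of 45.5 CPM. The difference between the ratios was not tested.

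Srxn1 did likewise, with a ratio of 0.442 in the ATI gate, from 31 GFP-positive and 71 Stk11-positive UMIs, and 1.57 in the keratin-high gate. In the ATI gate 1 cell held 20 of 138 Srxn1 UMIs. The thinned ATI shares overlapped, at 3.78% (1.74 to 7.06%) of GFP-positive and 4.28% (2.16 to 7.53%) of Stk11-positive cells. The difference between the ratios was not tested either, and mice cannot be told apart from transcript class in it.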

How the results depend on the processing

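With the fold set at 2 in place of 1.5, members past it numbered 1 (ATI over ATII), 3 (keratin-high over ATI) and 0 (GFP-positive over Stk11-positive cells), in place of 3, 5 and 3, and pathway genes 13 and 15 for the gate pairs with ATI, 20 for keratin-high over ATII and 5 for GFP-positive over Stk11-positive cells, in place of 27, 30, 34 and 11. Fewer genes pass a larger fold by construction, and the share of all genes past it is not given here, so these counts are a description only. In GFP-positive over Stk11-positive cells, 1 member was past 1.5-fold when cells were weighted equally, when they were thinned to 5000 UMIs, relative to the median gene, within the ATII gate and within the cells of no gate. Relative to the median gene 9.27% of all genes were past it, within the ATII gate 7.15% and within the cells of no gate 16.1%. For equal weighting and thinning the share of all genes is not given here. Pathway genes there numbered 7 without cells with markers of other types, 5 of 71 within the ATII gate, beside 7.15% of all genes, and 19 with a minimum of 1 CPM. The share of all genes is not given here for the first and last of these, so their counts are a description only. The log2 ratio of Srxn1 in GFP-positive over Stk11-positive cells, 0.76 in the pool, was -1.18 within the ATI gate and -0.18 within the cells of no gate. The cause was not tested.

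Of 391 values of single genes under alternatives, 373 kept the sign of the reported value, 228 lay within its counting interval and 161 moved beyond it. Of the sign changes, the 2 Srxn1 values above were the only ones in a comparison in which the gene itself was reported as past the fold. The comparisons within the cells of no gate, within GFP-positive cells and within Stk11-positive cells were added after seeing the data. No replicate was left out, since cells were not tied to mice. Nqo1 and Slc7a11 rest on 467 and 647 UMIs in all kept cells, which limits every statement on them.
No paired analysis was possible because the matrix holds no replicate numbers of mice.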

Other observations

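Of the small groups of kept cells with at least 4 markers of another cell type, the 50 ciliated-marked cells had 325 CPM (288 to 364) of Gclm, 27.0 CPM (17.3 to 40.1) of Nqo1 and 162 CPM (136 to 190) of Txnrd1. Their Gclm and Nqo1 levels lay above those of all 3 gates. Srxn1 stood at 31.4 CPM (20.9 to 45.4) in them, where the keratin-high gate had 38.7 CPM. The ciliated-marked cells were few, with 890539 UMIs in all, and 550 CPM of TdTomato. Of them 0 were GFP-positive and 18 Stk11-positive, and the latter were part of the pooled comparison of these classes.

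The 82 immune-marked cells had 54.6 CPM (44.7 to 66.0) of Slc7a11, 84.0 CPM (71.6 to 97.9) of Hmox1 and no Nqo1 UMI. The 132 endothelial-marked and 244 fibroblast-marked cells had 1 Slc7a11 UMI each. Gclc stood at 65.4, 58.8 and 47.5 CPM in immune-marked, endothelial-marked and fibroblast-marked cells, below the 123 CPM of the ATI gate. In ciliated-marked cells it stood above that, at 301 CPM (266 to 339).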
